A study of Mus musculus with 10 samples.

Results

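The transcripts of 10 glycolysis enzymes (*Hk1*, *Hk2*, *Hk3*, *Pfkl*, *Pfkp*, *Aldoa*, *Pgk1*, *Eno1*, *Pkm* and *Ldha*) were followed in cultures of mouse marrow progenitors, grown with a Notch ligand and sorted as T cell precursors or grown without it. The enzymes were taken by name from a list of glycolysis genes, which was drawn up with earlier results of these data known. All 10 were among the 24062 genes listed in the count data and passed the filter on low counts, as did 12221 genes in all. Together they took between 0.492% and 1.43% of the reads counted on genes in a library.

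Glycolysis splits glucose into pyruvate in the cytosol and yields ATP and NADH. Hexokinases commit glucose to the pathway by phosphorylating it, phosphofructokinase sets much of the flux, and lactate dehydrogenase turns pyruvate into lactate and returns NAD+. Several steps are served by more than 1 gene, and blood lineages differ in which isoform they use. Dividing blood progenitors and early thymocytes are known to use glycolysis for growth, and neutrophils and macrophages rely on it heavily.

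RNA-seq covered 10 libraries from cultures of LSK cells, the Lin-SCA1+KIT+ stem and progenitor fraction of C57BL/6J mouse marrow. DN1 (KIT++CD44+CD25-), DN2a (KIT++CD44+CD25+) and DN2b (KIT+CD44loCD25+) cells, with 2 libraries each, were sorted from cultures on a high density of the immobilized Notch ligand Delta1, and the 4 no Notch libraries (IgG in the labels, marked WT) came from cultures on human IgG1 at day 14. Every culture held the cytokines SCF, FLT3 ligand, IL-6 and IL-11, and IL-7 was present in the DN2a and DN2b cultures but not in those that gave DN1, so stage and IL-7 cannot be told apart. The study's methods name IL-7 for Delta1 cultures only. Between the control and DN2a or DN2b, Notch ligand and IL-7 therefore cannot be told apart either. DN libraries are numbered here as replicate 1 (the earlier year in the labels) and replicate 2 (the later year), the controls by their label names (D1, D2, R1 and R2, whose letters are not explained), and the ages of the mice and the days of the DN harvests are not given in the sources used here. The study describes the replicates as independent LSK isolates and takes the 3 DN stages from each of them, so the DN libraries of a replicate can share an isolate, although the labels tie them by year only.

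The libraries held between 12354635 and 35367925 reads on genes. Expression is given in CPM, the counts of a gene scaled to a common library size after TMM scaling, and log2FC is the log2 fold change from an edgeR fit of all 10 libraries. Marker genes went with the labels. The summed level of 8 T lineage genes (such as *Cd3e*, *Bcl11b* and *Gata3*) was between 1.79 and 4.93 CPM in the no Notch control, between 308.7 and 392.7 in DN1, between 2272 and 2977 in DN2a and between 4218 and 5265 in DN2b. By its markers the control held neutrophil, macrophage and erythroid transcripts, and DN1 replicate 1 and control library D2 stood apart from the others of their group, as given beside the enzymes concerned.

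Promoter sequences are printed for the hexokinases that fell, for *Pfkp*, which also fell, and for *Ldha*, which did not pass the test in any comparison. Each is the RefSeq window (GRCm38.p6, the mm10 build) from 250 bases before to 50 bases after a transcript start, written 5′ to 3′ on the strand of the gene. Capitals mark matches on either strand to CACGTG (the E-box that MYC proteins bind), ACGTG (a form of the core of the hypoxia response element, which lies inside the E-box), GTGGGAA (RBPJ, the DNA-binding partner of Notch) and AGGAAGT (PU.1, a myeloid factor). The hypoxia core below means ACGTG, and the form GCGTG was not searched. The windows are chr6:82774405-82774704 (minus strand) for *Hk2*, chr13:55021336-55021635 (minus strand) for *Hk3*, chr13:6648722-6649021 (minus strand) for *Pfkp* and chr7:46845554-46845853 (plus strand) for *Ldha*.
Hk2: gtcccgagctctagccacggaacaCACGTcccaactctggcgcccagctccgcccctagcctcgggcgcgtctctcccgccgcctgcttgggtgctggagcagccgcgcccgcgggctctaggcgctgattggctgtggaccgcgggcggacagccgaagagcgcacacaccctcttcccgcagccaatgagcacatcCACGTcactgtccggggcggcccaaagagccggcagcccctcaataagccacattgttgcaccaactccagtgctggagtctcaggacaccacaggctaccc
Hk3: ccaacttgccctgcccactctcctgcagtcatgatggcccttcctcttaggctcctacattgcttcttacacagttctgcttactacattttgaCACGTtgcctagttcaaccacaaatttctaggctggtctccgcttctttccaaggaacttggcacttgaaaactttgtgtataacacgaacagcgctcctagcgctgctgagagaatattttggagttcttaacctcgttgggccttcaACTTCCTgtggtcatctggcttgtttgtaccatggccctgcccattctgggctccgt
Pfkp: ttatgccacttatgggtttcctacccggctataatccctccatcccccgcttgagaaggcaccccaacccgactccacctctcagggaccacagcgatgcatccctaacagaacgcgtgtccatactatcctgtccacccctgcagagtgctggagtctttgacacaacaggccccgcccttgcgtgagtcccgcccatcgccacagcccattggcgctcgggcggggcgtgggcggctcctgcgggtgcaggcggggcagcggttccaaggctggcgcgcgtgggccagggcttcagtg
Ldha: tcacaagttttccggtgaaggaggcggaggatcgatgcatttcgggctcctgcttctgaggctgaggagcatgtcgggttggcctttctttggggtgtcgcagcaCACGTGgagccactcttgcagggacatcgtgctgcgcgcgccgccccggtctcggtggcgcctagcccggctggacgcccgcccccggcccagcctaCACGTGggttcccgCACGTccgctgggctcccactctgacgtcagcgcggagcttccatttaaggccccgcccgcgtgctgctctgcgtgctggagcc

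The *Ldha* window held 2 E-boxes and, counting both strands, 5 matches to the hypoxia core, of which the E-boxes make up all but 1. The *Hk2* window held 2 matches to the hypoxia core, and the *Hk3* window held 1 such match and 1 match to the PU.1 letters. The *Pfkp* window held no match to the letters searched. RefSeq gives 17 such windows for the 10 enzymes, with more than 1 for *Hk1*, *Aldoa*, *Eno1*, *Pkm* and *Ldha*. The hypoxia core was found in 8 of the 17 windows, against 19.62% of 32851 windows genome-wide. These windows belonged to 7 of the 10 genes, and 2 of them, both of *Aldoa*, overlap and hold the same match. The E-box was found in 1 window (7.15% genome-wide), the PU.1 letters in 2 (9.35%) and the RBPJ letters in none (6.38%). These matches describe letters in the windows and do not show that a factor binds there.

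The first comparison set each DN stage against the no Notch control, to ask how the enzymes' transcripts differed between T cell precursors and cells of the same starting fraction kept without Notch ligand. No enzyme was called higher in any DN stage, where a call means a Benjamini-Hochberg adjusted p under 0.05 over all tested genes in the quasi-likelihood test of edgeR. In DN1, 6 of the 10 were lower (*Hk2*, *Hk3*, *Pfkl*, *Pfkp*, *Aldoa* and *Pkm*), against 17.0% of all tested genes lower and 14.3% higher. In DN2a, 5 were lower (the same without *Aldoa*), against 24.3% of all tested genes lower and 21.2% higher. In DN2b, 6 were lower (*Hk2*, *Hk3*, *Pfkl*, *Pfkp*, *Aldoa* and *Pkm*), against 22.5% lower and 19.9% higher. The median log2FC of the 10 was -1.48 in DN1, -1.09 in DN2a and -0.996 in DN2b, where the median of all tested genes was 0.01, -0.05 and -0.05. These 3 comparisons share the same control libraries. For 6 enzymes (*Hk2*, *Hk3*, *Pfkl*, *Pfkp*, *Aldoa* and *Pkm*) all 6 DN libraries lay below all 4 no Notch libraries, which held for 20.7% of all tested genes, and for none did all DN libraries lie above, which held for 17.4%.

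**Figure D1:**
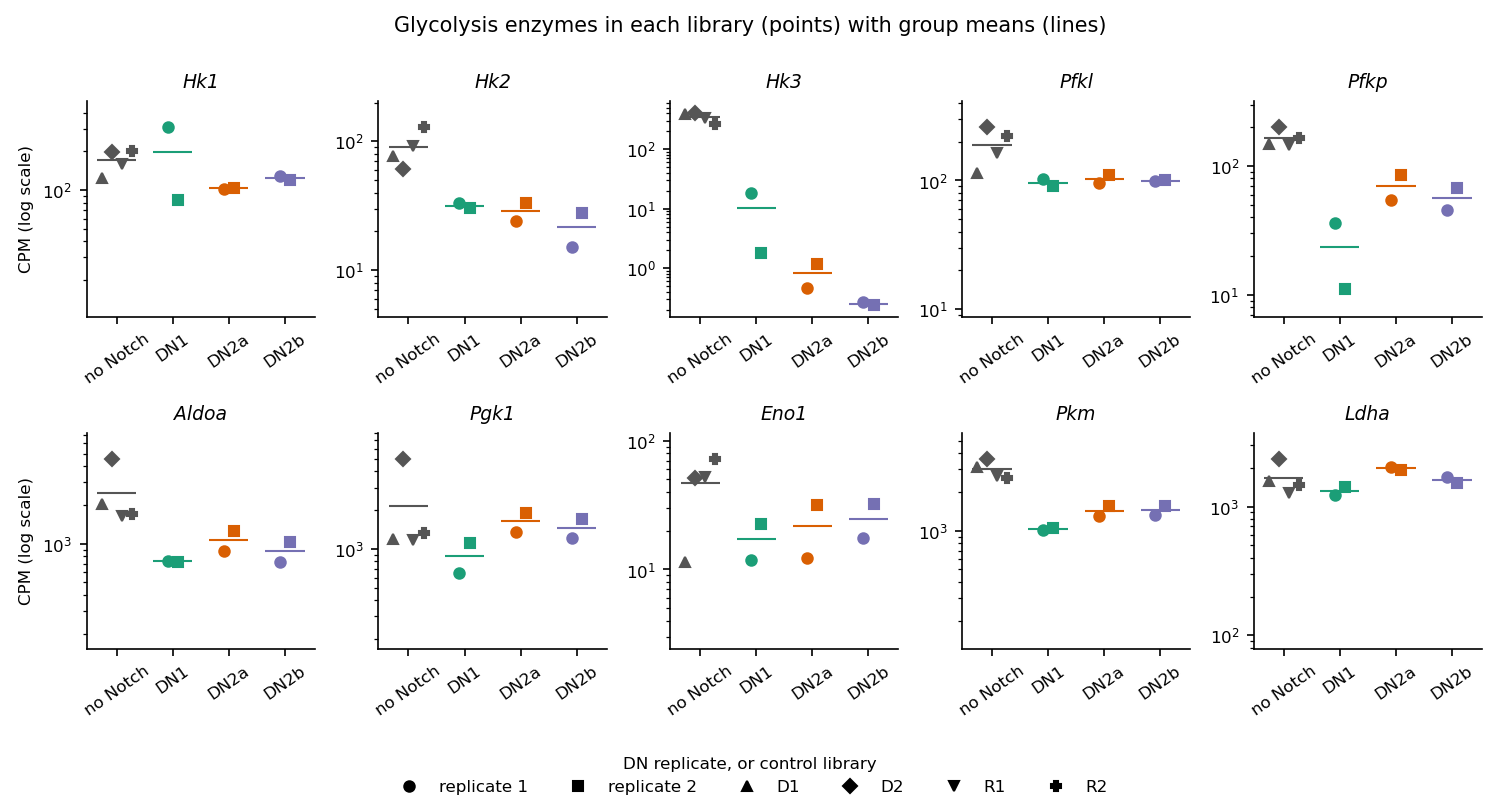
CPM (log scale) of the 10 enzymes in each library, grouped as no Notch control, DN1, DN2a and DN2b, with points for libraries and lines for group means. *Hk3* falls from between 264.4 and 409.6 CPM in the no Notch control to 0.239 and 0.267 in DN2b, while the *Ldha* points of the control, between 1285 and 2344, enclose most DN points.

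**Figure D2:**
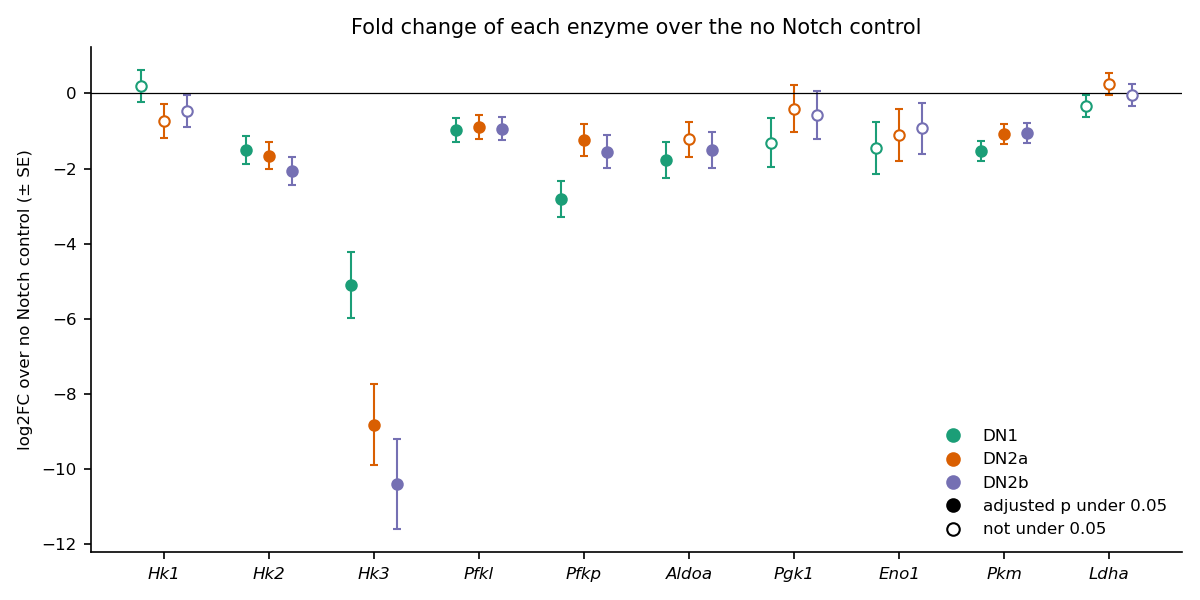
Log2FC over the no Notch control (± SE) of each enzyme in DN1, DN2a and DN2b, with filled points for an adjusted p under 0.05. *Hk3* has the lowest values (-5.11, -8.82 and -10.40), and *Hk1*, *Pgk1*, *Eno1* and *Ldha* have open points throughout.

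Hexokinases gave both the largest and some of the smallest differences. *Hk3*, on chromosome 13 (mm10, 55005985 to 55021385, minus strand), encodes a hexokinase found mainly in myeloid cells. It was at 398.3, 409.6, 332.7 and 264.4 CPM in control libraries D1, D2, R1 and R2. Replicates 1 and 2 had 18.4 and 1.79 CPM in DN1, 0.465 and 1.19 in DN2a, then 0.267 and 0.239 in DN2b. All DN values lay below all controls, and DN1 replicate 1 stood far above DN1 replicate 2. The DN2b values rest on 4 and 3 reads, the latter at the floor of 3 counts used here for detection.

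The log2FC of *Hk3* was -5.11 ± 0.88 (SE) in DN1, -8.82 ± 1.08 in DN2a and -10.40 ± 1.20 in DN2b, with edgeR adjusted p of 0.00329, 0.000466 and 0.000360. With 1 library left out in turn, it ranged from -7.61 to -4.25 in DN1, -9.54 to -8.20 in DN2a and -10.52 to -10.32 in DN2b. Over the 7 reads of both DN2b libraries, the mean level in the control was 1383 times that in DN2b, with a 95% exact Poisson interval from 671.1 to 3439 that covers counting error in DN2b only. For DN2a, with 29 reads, this ratio was 501.7 (349.3 to 749.1). In bulk RNA, fewer cells that express a gene and less of its RNA per cell cannot be told apart.

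Neutrophil and granule markers were lower in every DN library than in every control, as *Hk3* was. The summed level of 8 neutrophil and granule genes was between 21070.0 and 71957 CPM in the control, 2492 and 78.8 in DN1 replicates 1 and 2, between 10.5 and 20.9 in DN2a and between 1.53 and 2.87 in DN2b, where 3 of the 8 (*Ngp*, *Camp* and *Elane*) had no read. Macrophage genes (7 in the list) summed to between 1516 and 6597 CPM in the control and between 9.23 and 44.4 across the DN libraries, with *Mmp12*, *Msr1* and *C1qa* at or under the floor in each stage. Not all of them had a lower mean in DN2b than in DN1, with *Adgre1* (listed as *Emr1*) at 1.64 CPM in DN1 and 23.5 in DN2b and *Mrc1* at 0.187 and 3.42, while *Cd68* was at 11.1 in DN1 and 2.87 in DN2a. The 6 mast cell and basophil genes did not move together. Their sum was between 40.0 and 202.3 CPM in the control, between 443.8 and 1402 in DN1, between 377.6 and 579.3 in DN2a and between 257.7 and 456.6 in DN2b, and *Cpa3* carried most of it in the DN stages (means of 36.2 CPM in the control and 659.6, 470.7 and 354.9 in DN1, DN2a and DN2b). *Ms4a2* and *Fcer1a* averaged 82.4 and 165.2 CPM in DN1 against 5.17 and 3.28 in the control, and 1.40 or less in DN2a and DN2b. *Mcpt8* and *Prss34* averaged 32.3 and 24.05 CPM in the control and less in every DN stage (14.1 and 1.51 in DN1), and *Tpsab1* had no read in any DN library. The part of these cell types in the enzyme levels was not tested.

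*Hk2*, on chromosome 6 (82725025 to 82774454, minus strand), encodes the inducible hexokinase that can dock on mitochondria. It was at 76.4, 61.5, 92.4 and 129.5 CPM in control libraries D1, D2, R1 and R2. In replicates 1 and 2 it was at 33.0 and 30.4 CPM in DN1, 24.0 and 33.3 in DN2a, then 15.2 and 27.8 in DN2b. Every DN library lay below every control, and the DN stages overlapped except DN1 and DN2b. The log2FC was -1.50 ± 0.37 in DN1, -1.65 ± 0.37 in DN2a and -2.07 ± 0.38 in DN2b (edgeR adjusted p of 0.0143, 0.00642 and 0.00283). The DN1 call was lost without either DN1 library (adjusted p of 0.0603 and 0.0910) and with only controls D1 and D2 (0.0638), and the DN2a call without DN2a replicate 1 (0.0743).

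*Hk1*, on chromosome 10 (62268855 to 62379908, minus strand), encodes the hexokinase that most tissues express steadily. The control libraries had 124.9, 199.0, 159.7 and 201.8 CPM. DN1 had 309.5 and 84.2 CPM, the highest and the lowest of all 10 libraries, and DN2a had 102.5 and 104.1 and DN2b 127.8 and 120.0. The log2FC over the control was 0.20 ± 0.43 in DN1, -0.73 ± 0.44 in DN2a and -0.47 ± 0.44 in DN2b (edgeR adjusted p of 0.750, 0.201 and 0.407). Without DN1 replicate 1, the value for DN1 turned to -1.03 (adjusted p of 0.0523) and *Hk1* in DN2a passed the test (-0.73, adjusted p of 0.0356, and 0.0371 without the other DN1 library).

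DN1 replicate 1 stood apart for another gene of the pathway. *Pklr*, the pyruvate kinase gene of liver and red cells, was at 35.7 CPM there, at 0.0997 in the other DN1 library, between 0.0915 and 0.560 in the controls and had no read in DN2a or DN2b. The 5 erythroid and megakaryocyte genes summed to 435.8 CPM in that library, 123.1 in the other DN1 library, between 117.6 and 140.5 in DN2a, between 17.7 and 25.4 in DN2b and between 228.0 and 949.6 in the control. The part of erythroid cells in the *Hk1* level was not tested.

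To compare isoforms with each other, levels were divided by exon length. Per kb of exon, *Hk1*, *Hk2* and *Hk3* together came to 158.1 ± 13.4 CPM per kb (SD, n = 4) in the no Notch control, 51.3 ± 38.2 (n = 2) in DN1, 27.8 ± 1.59 in DN2a, then 30.7 ± 0.419 in DN2b. *Hk3* held between 54.0% and 74.4% of this sum in the control libraries and between 0.229% and 7.01% in the 6 DN libraries. The difference of the means was -64.0 percentage points (1.91% against 65.9%, exact two-sided permutation test over 6 DN and 4 control libraries, p = 0.00952, adjusted over the 3 shares tested 0.0143). This p is the smallest that 6 against 4 libraries allow, and it treats all 6 DN libraries as independent although stages can share an isolate, so it may be too small.

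*Hk1* made up most of what was left. It held between 16.9% and 29.9% of the sum in the control, and between 75.0% and 90.7% in the DN libraries, so the 2 ranges did not overlap. The share of *Hk2* averaged 15.5% in the DN libraries and 10.6% in the control, a difference of 4.94 percentage points (exact two-sided permutation p = 0.200, adjusted 0.200), although its level in CPM was lower in every DN library.

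**Figure D3:**
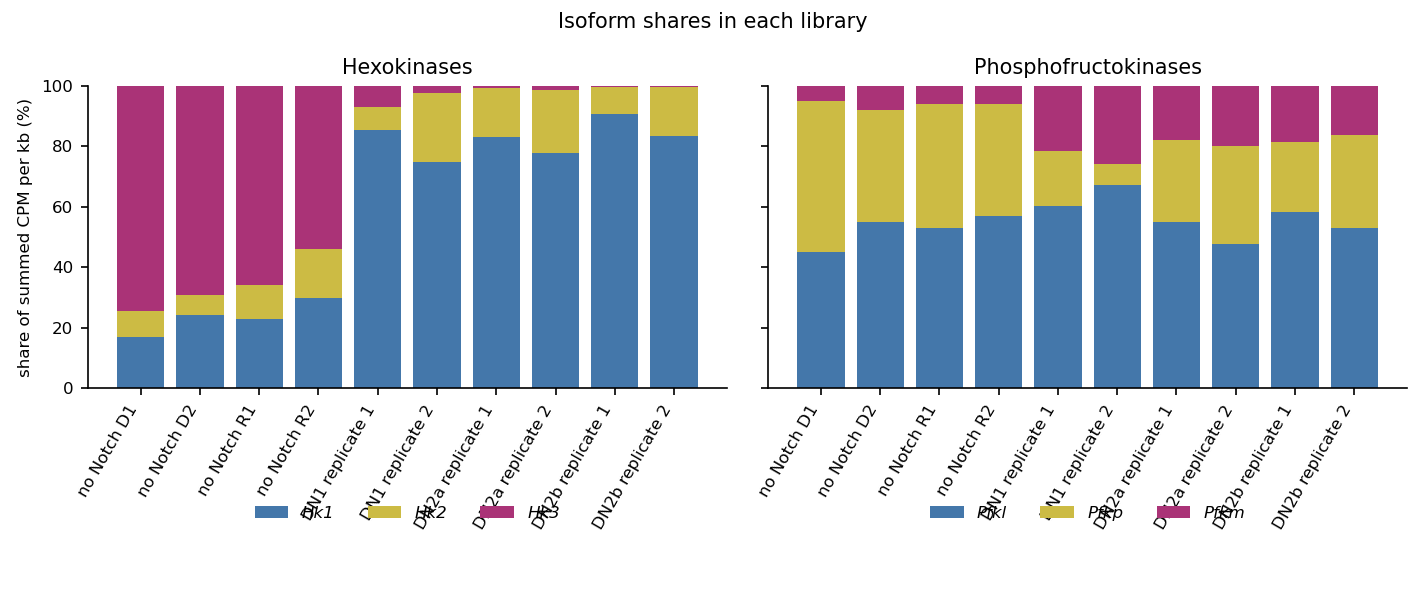
Share (%) of each gene in the summed CPM per kb of *Hk1*, *Hk2* and *Hk3* (left) and of *Pfkl*, *Pfkp* and *Pfkm* (right), as stacked bars for each library. *Hk3* fills between 54.0% and 74.4% of the hexokinase bar in the no Notch libraries and at most 7.01% in the DN libraries, and *Pfkp* between 36.9% and 49.99% and between 7.13% and 32.1% of the phosphofructokinase bar.

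Phosphofructokinase is a tetramer built from liver (*Pfkl*), platelet (*Pfkp*) and muscle (*Pfkm*) type subunits. *Pfkp*, on chromosome 13 (6579768 to 6648777, minus strand), was at 147.2, 200.9, 145.2 and 165.6 CPM in control libraries D1, D2, R1 and R2. The DN libraries had 35.9 and 11.1 CPM in DN1, 54.7 and 84.9 in DN2a, then 45.6 and 67.0 in DN2b. All DN libraries were below all controls, and both DN1 libraries were below all DN2a and DN2b libraries. The log2FC over the control was -2.81 ± 0.48 in DN1, -1.24 ± 0.44 in DN2a and -1.55 ± 0.45 in DN2b (edgeR adjusted p of 0.00328, 0.0438 and 0.0211). With 1 library left out in turn, the DN1 value ranged from -3.89 to -2.20. The DN2a call did not hold under 11 of 18 other settings, among them each DN2a library and each control library left out in turn (adjusted p between 0.0583 and 0.262). The DN2b call was lost without either DN2b library (0.149 and 0.0557) and with either pair of controls alone (0.0655 and 0.0601).

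*Pfkl*, on chromosome 10 (77986947 to 78010083, minus strand), was steady across the DN libraries. It was at 115.1, 260.3, 163.2 and 221.9 CPM in the controls D1, D2, R1 and R2. Replicates 1 and 2 had 102.0 and 90.8 CPM in DN1, 95.8 and 109.8 in DN2a, then 98.8 and 100.3 in DN2b. The DN values stayed below the controls, but the highest DN library (109.8) and control D1 (115.1) were close, and the controls differed among themselves more than the DN libraries did. The log2FC was -0.98 ± 0.31, -0.89 ± 0.31 and -0.93 ± 0.31 in DN1, DN2a and DN2b (edgeR adjusted p of 0.0414, 0.0433 and 0.0383). These calls sat at the threshold, since they held in 5, 4 and 7 of 18 other settings, with adjusted p up to 0.185, 0.219 and 0.162.

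*Pfkm*, which was not among the 10 enzymes, was at between 10.2 and 30.3 CPM in the control and between 24.5 and 36.9 in the DN libraries, and its log2FC of 0.62 in DN1, 0.73 in DN2a and 0.42 in DN2b did not pass the test (edgeR adjusted p of 0.241, 0.140 and 0.397). Per kb, the 3 subunit genes came to 95.5 ± 25.4 CPM per kb (SD, n = 4) in the control, 40.8 ± 6.46 (n = 2) in DN1, 54.1 ± 10.4 in DN2a, then 48.1 ± 3.63 in DN2b. *Pfkp* held between 36.9% and 49.99% of the sum in the control and between 7.13% and 32.1% in the DN libraries. The means, 41.2% and 23.2%, differed by -18.0 percentage points (exact two-sided permutation p = 0.00952, adjusted 0.0143). The *Pfkl* share overlapped between control (45.03% to 57.0%) and DN libraries (47.9% to 67.1%), and the *Pfkm* share did not (4.98% to 7.98% against 16.1% to 25.7%). These last 2 shares were not tested.

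Aldolase A (*Aldoa*, chromosome 7, 126795234 to 126800751, minus strand) splits fructose 1,6-bisphosphate into a pair of triose phosphates. Its level was 2025, 4550.25, 1644 and 1700.4 CPM in control libraries D1, D2, R1 and R2. The DN libraries had 730.6 and 723.5 CPM in DN1, 873.9 and 1259 in DN2a, then 723.0 and 1032 in DN2b. All DN libraries were below all controls, of which D2 stood far above the rest. The log2FC was -1.77 ± 0.48 in DN1, -1.22 ± 0.47 in DN2a and -1.50 ± 0.47 in DN2b (edgeR adjusted p of 0.0223, 0.0576 and 0.0302). The DN1 and DN2b calls were lost in fits of only the 2 groups compared (0.0574 and 0.0618) and without either library of the stage, and without control D2 *Aldoa* passed in DN2a (-0.74, adjusted p of 0.0403).

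Phosphoglycerate kinase 1 (*Pgk1*, chromosome X, 106187100 to 106203699, plus strand) makes the first ATP of the pathway. Control D2 had 5008 CPM, and the other controls D1, R1 and R2 had 1188, 1173 and 1324. The DN libraries had 646.0 and 1105 CPM in DN1, 1361 and 1918 in DN2a, then 1211 and 1712 in DN2b. Both DN1 libraries lay below all controls, while the DN2a and DN2b libraries lay between D2 and the lowest control. No comparison passed the test, with a log2FC of -1.31 ± 0.66 in DN1, -0.41 ± 0.63 in DN2a and -0.57 ± 0.63 in DN2b (edgeR adjusted p of 0.157, 0.619 and 0.485). Without D2, the DN2a and DN2b values turned to 0.42 and 0.26 and still did not pass (0.253 and 0.475).

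Enolase 1 (*Eno1*, chromosome 4, 150236721 to 150248879, plus strand), which makes phosphoenolpyruvate, was counted at a low level. The controls had 11.5, 51.8, 52.6 and 72.2 CPM, and the DN libraries 11.9 and 22.4 in DN1, 12.2 and 31.6 in DN2a, then 17.5 and 32.1 in DN2b. Control D1 lay below every DN library and the other 3 controls above them all. The log2FC of -1.46 ± 0.70, -1.11 ± 0.69 and -0.92 ± 0.68 did not pass in DN1, DN2a or DN2b (edgeR adjusted p of 0.140, 0.209 and 0.293), although DN1 and DN2a passed without control D1 (-1.78 and -1.43, adjusted p of 0.0323 and 0.0457).

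Reads of *Eno1* can also be placed on *Eno1b*, a near-identical copy that was added here after its values were seen. In the annotation, 24.1% of the 36-base windows of *Eno1* transcripts, the length of the aligned reads, occur in no other annotated gene, and *Eno1b* holds 74.2% of them. *Eno1b* was counted at 3.14, 7.61, 2.17 and 1.80 CPM in controls D1, D2, R1 and R2 and at 50.3 and 119.3 in DN1, 124.6 and 212.3 in DN2a, then 118.5 and 230.3 in DN2b. Every DN library was above every control, with a log2FC of 4.54 ± 0.60 in DN1, 5.53 ± 0.62 in DN2a and 5.58 ± 0.62 in DN2b (edgeR adjusted p of 0.00113, 0.000314 and 0.000295). With reads placed on more than 1 locus left out of the counts, neither value measures total enolase 1 RNA.

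The same limit applies in part to other enzymes of the lower pathway. The share of 36-base windows in no other annotated gene was 31.8% for *Pgk1*, 52.6% for *Pkm*, 71.9% for *Ldha*, 77.1% for *Aldoa* and 83.4% for *Pfkp*, and at least 97.4% for *Hk1*, *Hk2*, *Hk3* and *Pfkl*. Pseudogenes held most of the shared windows of *Pgk1*, *Pkm* and *Ldha*, and *Pitrm1* held those of *Pfkp*. Since reads placed on more than 1 locus were left out of the counts, levels of *Pgk1*, *Pkm*, *Ldha*, *Aldoa* and *Eno1* can be understated. Divided by the number of windows in no other annotated gene (each counted as 1 base) instead of the exon length, mean levels in the control went from 1191 to 3819 CPM per kb for *Pgk1*, from 23.2 to 97.9 for *Eno1*, from 1152 to 2200 for *Pkm*, from 1360 to 1766 for *Aldoa* and from 880.2 to 1249 for *Ldha*.

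**Figure D4:**
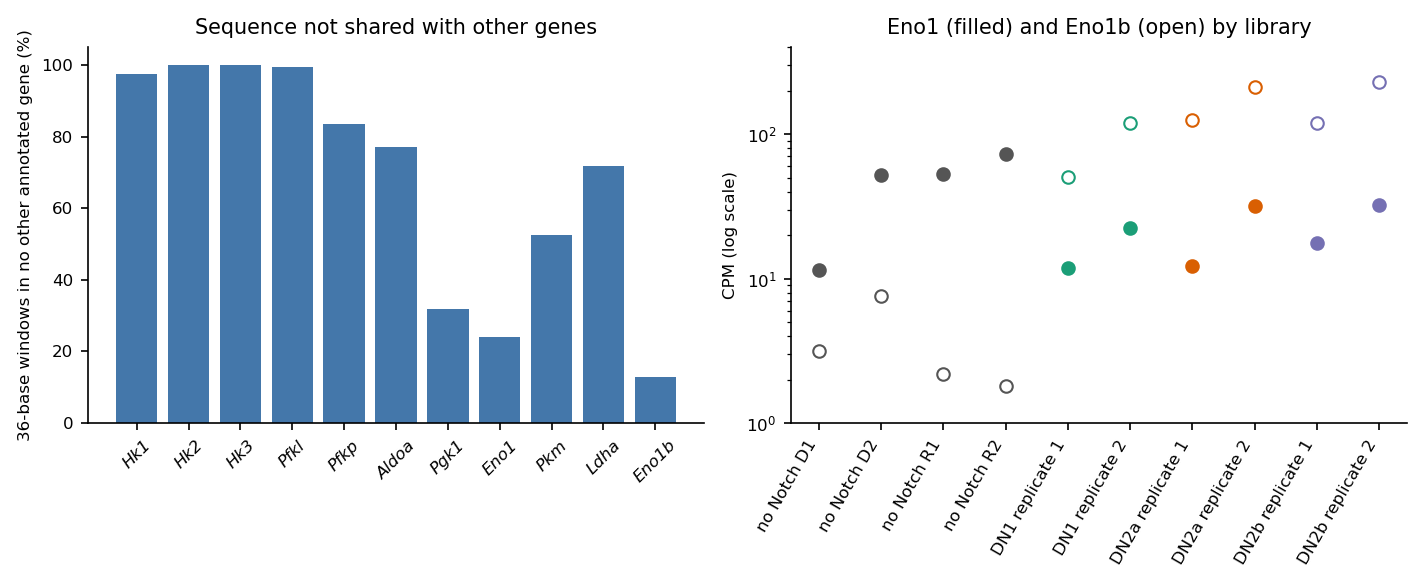
Percent of 36-base transcript windows that occur in no other annotated gene (left, bars from 0) and CPM on a log scale of *Eno1* (filled) and *Eno1b* (open) in each library (right). *Eno1* (24.1%) and *Eno1b* (12.8%) have the lowest bars, and *Eno1b* lies above *Eno1* in all 6 DN libraries and below it in the 4 no Notch libraries.

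Pyruvate kinase M (*Pkm*, chromosome 9, 59656368 to 59679375, plus strand) makes pyruvate and the last ATP of the pathway. It was at 3123, 3612, 2670.1 and 2571 CPM in control libraries D1, D2, R1 and R2. The DN libraries had 1015 and 1055 CPM in DN1, 1300.4 and 1543 in DN2a, then 1327 and 1547 in DN2b. All DN libraries lay below all controls and DN1 lay below the other stages, while DN2a and DN2b overlapped. The log2FC was -1.53 ± 0.27 in DN1, -1.07 ± 0.26 in DN2a and -1.06 ± 0.26 in DN2b (edgeR adjusted p of 0.00376, 0.0101 and 0.0117). The DN1 call held in all 18 other settings, and the DN2a and DN2b calls were lost only without either library of the stage (adjusted p between 0.0553 and 0.116).

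Lactate dehydrogenase A (*Ldha*, chromosome 7, 46841475 to 46855627, plus strand) turns pyruvate into lactate. It was at 1571, 2344, 1285 and 1473 CPM in the controls D1, D2, R1 and R2. The DN libraries had 1226 and 1424 CPM in DN1, 2044 and 1922 in DN2a, then 1706 and 1524 in DN2b. The 3 DN stages did not overlap each other, and all but the lower DN1 library lay within the range of the controls. The log2FC was -0.33 ± 0.29 in DN1, 0.25 ± 0.29 in DN2a and -0.05 ± 0.29 in DN2b (edgeR adjusted p of 0.415, 0.497 and 0.907). The sign in DN2b turned to 0.044 with scaling to library size only, so no direction is given for *Ldha*.

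In the order of the enzymes by CPM per kb, *Hk3* held a different place in control and DN cells. In the control, *Aldoa* (1360 ± 762, SD, n = 4), *Pgk1* (1191 ± 1036), *Pkm* (1152 ± 183) and *Ldha* (880.2 ± 245.8) came first and did not differ beyond their spread, followed by *Hk3* (104.7 ± 20.01), *Pfkl* (51.0 ± 17.2), *Pfkp* (38.3 ± 5.995), *Hk1* (37.0 ± 7.87), *Eno1* (23.2 ± 12.6) and *Hk2* (16.3 ± 5.30). In all 3 DN stages, *Ldha* and *Pgk1* had the highest means and *Hk3* the lowest, at 3.01 ± 3.51 CPM per kb in DN1, 0.246 ± 0.152 in DN2a, then 0.0754 ± 0.00591 in DN2b (SD of 2 libraries). The order near the top was not firm there either. In DN1, *Pgk1* (479.6 ± 177.7) did not differ beyond its spread from *Aldoa* (398.6 ± 2.73) and *Pkm* (398.3 ± 10.9). In DN2a and DN2b, *Pgk1* (898.3 ± 215.6 and 800.8 ± 194.1) did not differ so from *Ldha* (1047 ± 45.5 and 852.2 ± 67.8). Per kb of 36-base windows found in no other annotated gene, *Pgk1* had the highest mean in every group (1538 in DN1, 2881 in DN2a and 2568 in DN2b, against 991.6, 1485 and 1209 for *Ldha*), and *Hk3* was still last in the DN stages. On that scale *Eno1* stood beside *Hk3* in the control (97.9 ± 53.1 and 103.9 ± 19.9) and above *Hk1* in DN2a and DN2b (45.6 and 51.7 against 22.9 and 27.5), though not in DN1 (35.7 against 43.7).

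Comparisons between DN stages asked whether the enzymes changed as cells moved from DN1 to DN2b. Between DN2a and DN1, none of the 10 passed (0.205% of all tested genes lower and 0.196% higher), and 1328 genes had an unadjusted p under 0.05. Between DN2b and DN2a, none of the 10 and no gene at all passed (0.0% lower and 0.0% higher), with 335 genes at an unadjusted p under 0.05. Between DN2b and DN1, *Hk3* alone passed (0.892% of all tested genes lower and 1.01% higher). The number of genes called depended on the tool, since edgeR gave 49, 0 and 233 genes in these 3 comparisons and DESeq2 gave 478, 29 and 821. The absence of a call for the other enzymes does not show that their levels were the same.

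*Hk3* was lower in both DN2b libraries (0.267 and 0.239 CPM) than in both DN1 libraries (18.4 and 1.79), with a log2FC of -5.29 ± 1.10 (edgeR adjusted p of 0.0471). Without DN1 replicate 1 the value was -2.79 (0.126), and leaving out any other library except DN1 replicate 2 also lost the call, with adjusted p up to 0.283. With the year of the label as a replicate block in the DN libraries, the value was -4.99 and the call was lost (0.167), as it was in the DN libraries without the block (-5.28, 0.129). Between DN2a and DN1, *Hk3* had a log2FC of -3.71 ± 0.93 (edgeR adjusted p of 0.170), which passed with DESeq2 (0.000932) and without DN1 replicate 2 (0.00418).

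*Pfkp* differed between stages in the other direction without passing the test. Its log2FC was 1.57 ± 0.49 in DN2a over DN1 and 1.26 ± 0.49 in DN2b over DN1 (edgeR adjusted p of 0.272 and 0.283), with both DN1 libraries below all DN2a and DN2b libraries. With 1 library left out in turn, these values ranged from 0.96 to 2.65 and from 0.65 to 2.34. *Pgk1*, *Pkm* and *Ldha* were also higher in every DN2a and DN2b library than in every DN1 library, with a log2FC in DN2b over DN1 of 0.74 ± 0.72, 0.47 ± 0.29 and 0.29 ± 0.33 (adjusted p of 0.712, 0.540 and 0.764). *Hk2* gave -0.56 ± 0.40 and *Pfkl* 0.05 ± 0.35 in the same comparison (0.596 and 0.970).

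Genes that sit between the 10 enzymes in the pathway were read from lists chosen with earlier results of these data known. Glucose enters through transporters, of which *Slc2a1* (GLUT1) was at between 71.8 and 116.4 CPM in the control, 30.02 and 29.2 in DN1, 42.9 and 44.4 in DN2a, then 39.8 and 63.3 in DN2b. *Slc2a1* was lower in all 3 stages, with a log2FC of -1.78 ± 0.28, -1.22 ± 0.27 and -0.98 ± 0.27 (edgeR adjusted p of 0.00236, 0.00647 and 0.0174). Without replicate 1 of the stage, the DN2a and DN2b calls were lost (-1.19 and -0.69, adjusted p of 0.0622 and 0.154). *Gpi1*, which isomerizes glucose 6-phosphate, was at 3376 CPM in control D2, between 1064 and 1248 in the other controls and between 648.0 and 904.8 in the DN libraries. It did not pass in any stage (-1.37 ± 0.49, -1.15 ± 0.49 and -1.23 ± 0.49, adjusted p of 0.0599, 0.0792 and 0.0680), but passed in all 3 without control D2 (-0.83, -0.60 and -0.67, adjusted p of 0.0207, 0.0470 and 0.0333) and in DN1 and DN2b without control D1 (0.0465 and 0.0481).

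*Tpi1*, which interconverts the triose phosphates, was at between 665.9 and 1436 CPM in the control and between 366.3 and 627.1 in the DN libraries, with a call in DN1 only (-1.20 ± 0.35, edgeR adjusted p of 0.0309, against 0.129 and 0.0553 in DN2a and DN2b) that was lost without DN1 replicate 1 or 2 or DN2a replicate 1 (0.0864, 0.162 and 0.0513). *Pgam1*, a phosphoglycerate mutase, was at between 1113 and 1581 CPM in the control and between 456.6 and 660.9 in the DN libraries. It was lower in all 3 stages (-1.43 ± 0.24, -1.05 ± 0.24 and -1.09 ± 0.24, adjusted p of 0.00312, 0.00678 and 0.00645), and the DN2a and DN2b calls were lost without either library of the stage (adjusted p between 0.0537 and 0.0693). *Gapdh*, which makes the NADH of the pathway, was at 1053, 2146, 1121 and 1167 CPM in controls D1, D2, R1 and R2, 1210 and 1289 in DN1, 1767 and 1946 in DN2a, then 1878 and 2089 in DN2b. It did not pass in DN1, DN2a or DN2b (-0.13 ± 0.33, 0.44 ± 0.32 and 0.53 ± 0.32, adjusted p of 0.783, 0.289 and 0.204). Without control D2, *Gapdh* was higher in DN2a and DN2b (0.74 and 0.84, adjusted p of 0.00847 and 0.00528) and its DN1 value turned to 0.16 (0.491).

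The 7 lists of glucose metabolism hold 58 genes besides the 10 enzymes, of which 47 passed the filter on low counts. In DN1, 11 of these were lower and 2 higher, in DN2a 13 and 6, and in DN2b 10 and 6 at an adjusted p under 0.05. Of all tested genes, 17.0%, 24.3% and 22.5% were lower and 14.3%, 21.2% and 19.9% higher. Their median log2FC was -0.37, -0.15 and -0.18. Among the 7 tested transporter genes, 3 were lower in each stage (*Slc2a1*, *Slc2a6* and *Slc16a3*) and *Slc16a1* was higher in DN2a and DN2b. Among the 5 tested genes that act on the phosphofructokinase step, 2 were lower in DN1, 4 in DN2a and 3 in DN2b, with *Pfkfb4* and *Tigar* (listed as *9630033F20Rik*) lower in every stage. *Pfkfb4* had a log2FC of -3.33, -3.29 and -3.18.

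Of the 13 tested genes of pyruvate entry into mitochondria, none was lower in any stage, and *Pdha1* was higher in all 3 (with *Pdhb* in DN2a and DN2b). Of the 7 pentose phosphate genes, *G6pdx* and *Pgd*, the NADPH-making steps, were lower in every stage (-2.08 and -1.82 in DN1, -2.34 and -2.10 in DN2a, -2.42 and -2.29 in DN2b). *Rpe* was higher in DN2a and DN2b, and *Pgls* in DN2b. The transcription factor genes gave 2 lower and 1 higher in DN1 (*Hif1a*, *Arnt* and *Mycn*), the same calls in DN2a, and 1 lower and 1 higher in DN2b (*Arnt* and *Mycn*), while *Myc* did not pass in DN1, DN2a or DN2b (1.05, 0.66 and 0.50, adjusted p of 0.0716, 0.201 and 0.338).

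**Figure D5:**
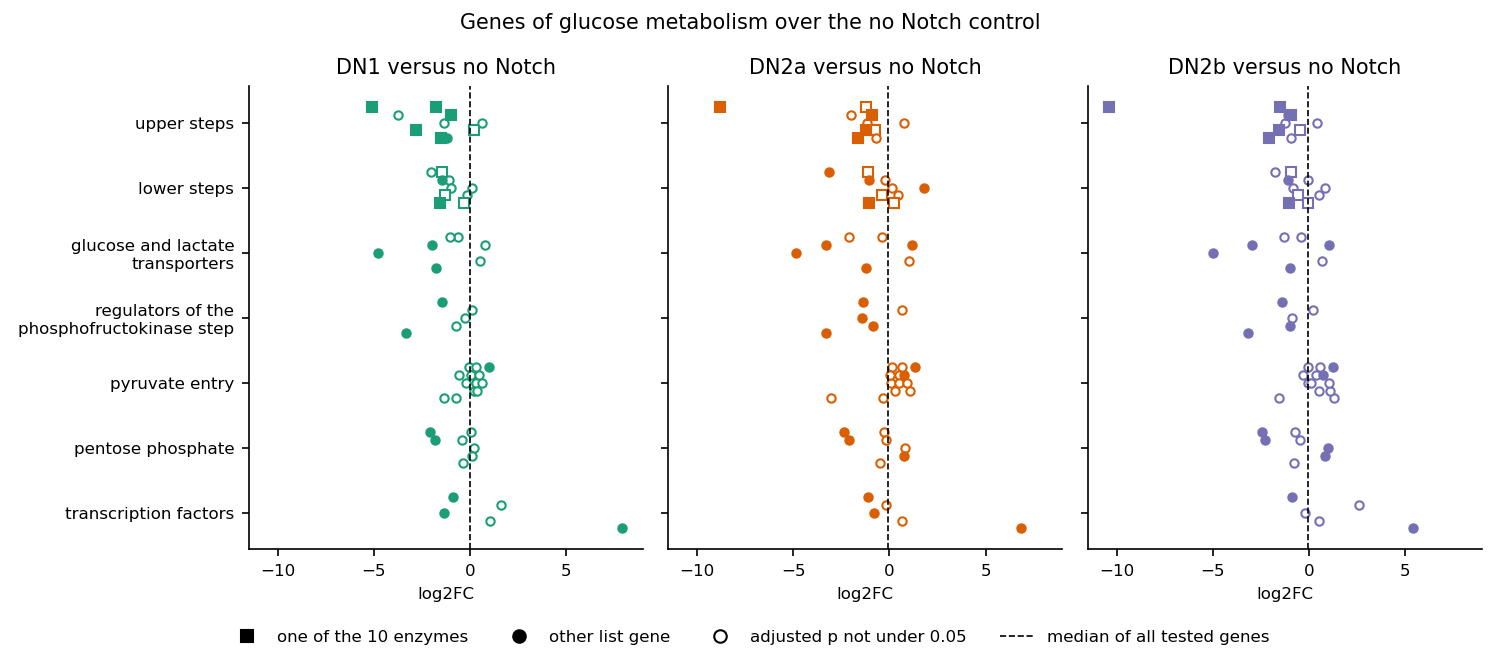
Log2FC over the no Notch control of the tested genes of 7 lists of glucose metabolism in DN1, DN2a and DN2b, with squares for the 10 enzymes, circles for other genes, filled marks for an adjusted p under 0.05 and a dashed line at the median of all tested genes (0.01, -0.05 and -0.05). *Hk3* lies farthest left in each panel and *Mycn* farthest right, while no filled mark of pyruvate entry lies left of the line.

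By size among these lists, *Hk3* and *Slc16a3* had the lowest log2FC in each stage, and *Mycn* the highest. *Slc16a3*, a lactate exporter, was at 130.8, 323.8, 169.4 and 230.9 CPM in controls D1, D2, R1 and R2, 13.1 and 2.59 in DN1, 1.002 and 14.2 in DN2a, then 0.534 and 12.9 in DN2b. Its log2FC was -4.76 ± 1.43, -4.85 ± 1.44 and -5.004 ± 1.46 (edgeR adjusted p of 0.0327, 0.0224 and 0.0220), with the 2 libraries of a stage far apart. Without DN1 replicate 1 or 2 the DN1 value was -6.36 or -4.03 and the call was lost (0.0634 and 0.167), as it was without control R1 or R2 (0.0543 and 0.0505). Without replicate 1 of the stage the DN2a and DN2b values were -3.91 and -4.05 and the calls were lost (0.115 and 0.0919), and without replicate 2 they were -7.73 and -8.63. *Mycn*, a MYC family factor, was at 0.168, 0.415, 0.0293 and 0.183 CPM in the controls, 56.9 and 36.4 in DN1, 14.5 and 30.8 in DN2a, then 5.54 and 10.9 in DN2b, with a log2FC of 7.91 ± 0.70, 6.86 ± 0.68 and 5.404 ± 0.66 (adjusted p of 0.000186, 0.000185 and 0.000472).

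*Pdha1*, a subunit of pyruvate dehydrogenase, was at 125.1, 202.4, 108.4 and 117.5 CPM in controls D1, D2, R1 and R2, 196.7 and 352.6 in DN1, 329.2 and 362.3 in DN2a, then 327.0 and 329 in DN2b, and overlapped the control in DN1 only. Its log2FC was 0.99 ± 0.31 in DN1, 1.32 ± 0.31 in DN2a and 1.25 ± 0.31 in DN2b (edgeR adjusted p of 0.0366, 0.00745 and 0.0108). The DN1 call was lost without any 1 library other than DN1 replicate 1 and control D2, with a value of 0.51 without DN1 replicate 2 (adjusted p of 0.344, and between 0.0506 and 0.0898 for the others), and the DN2b call without DN2b replicate 1 (0.0579). *Pgam2*, the muscle mutase, rose in DN2a (1.82 ± 0.59, adjusted p of 0.0305) at a low level, 6.76 and 6.83 CPM against between 0.728 and 3.41 in the control, and lost the call without either DN2a library or control R1 or R2 (adjusted p between 0.0617 and 0.1247). Between DN2b and DN1, *Hk3* was the only gene of the lists that passed.

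The genes whose levels ran most like those of the enzymes over the 10 libraries are given as a description, by Pearson's r of log2(CPM + 1). Most share the split into control and DN libraries, and 10 libraries give a high r for many genes. For *Hk3* they were *Cybb* (0.998, the gp91 subunit of the phagocyte oxidase), *Tdrd7* (0.998) and *Lyz1* (0.997, a lysozyme), with *Cybb* at between 773.3 and 1310.02 CPM in the control and between 0 and 26.4 in the DN libraries. *Hk2* ran with *Hook3* (0.977), *Nfe2l1* (0.977) and *Dgkd* (0.970), and *Pfkp* with *Sema4a* (0.959), *Sesn2* (0.959) and *Id1* (0.949). *Hk1*, highest and lowest in DN1 replicates 1 and 2, ran with *Jak2* (0.958), *Pkp3* (0.949) and *Pde5a* (0.938). *Pfkl* ran with *Wdr65* (0.989), *Nrg1* (0.982) and *Ncmap* (0.981), which had at most 0.185 CPM in any DN library.

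Control library D2 was the highest of the 4 controls for 7 of the 10 enzymes and for 30 of the 47 other tested genes of the lists, against 33.2% of all tested genes. Its neutrophil and granule genes summed to 71957 CPM, against between 21070.0 and 40111 in the other controls, although 1 of the 8, *Ltf*, was higher in R1 (4145 CPM, against 1017 in D2), and its 6 cell cycle genes to 698.3, close to D1 (708.9) and below R1 and R2 (1007 and 1521), although *Cdk1* was highest in D2 (171.5 CPM). The part of these in the enzyme levels was not tested. Without DN1 replicate 1 and control D2 together, a fit chosen after seeing the data, 5 enzymes were lower in DN1, 6 in DN2a and 5 in DN2b, and none higher. Of the 12221 genes tested, 1870, 3388 and 3204 were lower and 1747, 2993 and 2911 higher in that fit. The 6 cell cycle genes summed to between 1042 and 1369 CPM in DN1, between 1483 and 1682 in DN2a and between 629.5 and 1011 in DN2b, and 5 B lineage genes to at most 19.8 CPM in any library.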

How the data were processed

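Total RNA of 10 libraries (4 no Notch control, 2 each of DN1, DN2a and DN2b) was sequenced by the authors with a stranded total RNA kit. The authors deposited 1 table of read counts per library, made from the first 36 bases of read 1, aligned to mm10 with TopHat and counted with htseq-count in intersection-strict mode. The submitters' processing notes name TopHat2 2.12, Cufflinks 2.2.1 and HTSeq 0.6.1p1. The annotation and the strand setting are not given in the sources used here. Reads placed on more than 1 locus were not counted on genes. The 5 summary lines of each table, with between 20.5% and 41.0% of the reads listed, were dropped.

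Genes at 1 CPM or more in at least 2 libraries (12221) were kept and fitted in 1 model of 4 groups with edgeR 4.0.16 in R 4.3.3 (TMM scaling with factors between 0.858 and 1.19, prior count 0.125, quasi-likelihood test), and p-values were adjusted by the Benjamini-Hochberg method over all genes tested, with a threshold of 0.05. SE is the size of the log2FC over the square root of F. The floor for detection was 3 counts, or between 0.0848 and 0.243 CPM by library. Such intervals and floors cover counting error only, since reads carried no molecular identifiers. P-values measure the spread between these libraries. No replicates were counts of 1 library deposited more than once. Shares of isoforms were tested by exact permutation with scipy 1.17.1, with Python 3.11.15. Transcript lengths, coordinates and 36-base windows came from GENCODE vM21, and promoters from RefSeq. Alternatives were DESeq2 1.42.0, other scaling, filters and groups of controls, a replicate block and each library left out. The edgeR fit was tested on simulated data.

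The enzymes, the 7 lists of glucose metabolism and the 7 lists of markers were chosen with earlier results of these data known. Besides the 10 enzymes, the named genes were *Gapdh*, *Tpi1*, *Gpi1*, *Pgam1* and *Slc2a1*, the 2 called list genes of largest log2FC in each direction for each DN stage against the control and for DN2b against DN1, and the 3 genes of highest Pearson's r with each of *Hk1*, *Hk2*, *Hk3*, *Pfkl* and *Pfkp*. Other list genes were named after their values were seen. *Tigar* and *Adgre1* were matched by older symbols. Same-year DN libraries were taken as candidate pairs. The deviations of same-year libraries from their stage means correlated with r = 0.063 for DN1 and DN2a, 0.19 for DN1 and DN2b and 0.45 for DN2a and DN2b.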

Additional observations from a re-analysis of the deposited data

Results flagged for a closer look

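In the no Notch control, library D2 stood apart from the other 3 controls, by Dixon's gap test for 4 samples, for 4 of the 19 genes tested in this way. Chance would flag about 1 in 20 such groups. *Aldoa* was at 4550.25 CPM in D2 and at most 2025 in the others, and *Pgk1* at 5007.71 against at most 1324. *Gpi1* was at 3376.41 CPM in D2 and at most 1248 in the others, and *Gapdh* at 2146.11 against at most 1167. The summed level of the neutrophil and granule markers was also highest in D2, though *Ltf* was not (1017 CPM, against 4145 in R1), and their part in these levels was not tested.

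The effect of *Hk3* over the control differed between DN2b and DN1, with a log2FC of -5.29 between the stages (edgeR adjusted p of 0.0471). It was lower in both DN2b libraries than in both DN1 libraries. Without DN1 replicate 1 the value was -2.79 (0.126). The call was also lost without any other single library except DN1 replicate 2 (adjusted p between 0.0659 and 0.283), with the year as a replicate block in the DN libraries (-4.99, 0.167) and in the DN libraries without the block (-5.28, 0.129).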

How the results depend on the processing

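Of the log2FC of named genes under other settings, 905 kept their direction and their side of the threshold, 120 lost the call, 35 gained one and 20 turned their direction. The cause was not tested. With controls D1 and D2 only, 2299 genes were called in DN1 (3834 in all libraries) and 3238 in DN2b (5190), and *Ldha* in DN2a turned to -0.025. With controls R1 and R2 only, *Pgk1* turned to 0.40 in DN2a and 0.24 in DN2b, *Ldha* in DN2b to 0.24 and *Gapdh* in DN1 to 0.13. With library size scaling, 3 enzymes were called in DN2a (5 with TMM), *Ldha* in DN2b turned to 0.044 and *Gapdh* in DN1 to 0.15, while the median of all genes in DN1 was 0.27 (0.01 with TMM). DESeq2 called 478 genes between DN2a and DN1 (49 with edgeR) with 1 enzyme, 29 between DN2b and DN2a (0) and 821 between DN2b and DN1 (233). Without a filter the first 2 counts were 101 and 1. Fits of only the groups compared called 22 genes between DN2a and DN1 and 80 between DN2b and DN1, with 0 enzymes.

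The labels tie same-year DN libraries by year only, while the study's methods take all DN stages from each LSK isolate. With the year as a replicate block the DN libraries gave 67 genes between DN2a and DN1 (32 without the block), 0 between DN2b and DN2a (0) and 238 between DN2b and DN1 (180), with 0 enzymes either way. *Hk3* between DN2b and DN1 was -4.99 with the block.

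Without DN1 replicate 1 and control D2 together, chosen after seeing the data, 16 genes were called between DN2a and DN1 and 83 between DN2b and DN1, with 0 enzymes. *Hk1* turned to -0.95 in DN1 and to 0.56 between DN2b and DN1, *Pgk1* to 0.42 in DN2a and 0.25 in DN2b, *Ldha* in DN2b to 0.16 and *Gapdh* in DN1 to 0.21. The share differences of *Hk3* and *Pfkp* were then -63.9 and -18.5 points (adjusted exact permutation p of 0.0536), where 5 against 3 libraries allow no raw p below 0.0357.

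With 1 library left out in turn, the genes called ranged from 1847 to 4167 in DN1, 2682 to 6043 in DN2a, 2698 to 5688 in DN2b, 0 to 230 between DN2a and DN1, 0 to 1 between DN2b and DN2a and 50 to 385 between DN2b and DN1. Enzymes called ranged from 3 to 7 in DN1 (3 without either DN1 library), 1 to 5 in DN2a (1 without its replicate 1 and 2 without its replicate 2), 2 to 6 in DN2b (2 without either of its libraries), 0 to 1 between DN2a and DN1, 0 to 0 between DN2b and DN2a and 0 to 1 between DN2b and DN1. Where a stage is left with 1 library, that library is assumed to vary like the other groups. *Hk1* ranged from -1.03 to 0.85 in DN1 and from -1.32 to 0.56 between DN2b and DN1, *Pgk1* from -0.67 to 0.42 in DN2a and -0.84 to 0.26 in DN2b, *Ldha* in DN2b from -0.15 to 0.17 and *Gapdh* in DN1 from -0.24 to 0.16. Uniqueness of 36-base windows over the whole genome was not run.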
